A study of Mus musculus with 278 samples.

Results

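Genes of the actin cytoskeleton and of YAP signalling were followed through the single-cell TPM table (transcripts scaled for gene length and to the same total in every cell). They are 10 of its 14145 genes and were taken by symbol. Acta2, Tagln, Myl9, Tpm1, Tpm2 and Cnn1 are the 6 contractile members, and Ctgf, Cyr61, Ankrd1 and Amotl2 are the 4 YAP targets. All 10 passed the filter that left 12355 genes (TPM over 1 in more than 5 cells).

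The cells were primary mouse keratinocytes from adult back skin. Wild-type (WT) cells and K14ΔNβ-cateninER cells were mixed at 9 parts to 1. In the latter, the K14 promoter of basal keratinocytes drives a stable form of beta-catenin that is joined to part of the oestrogen receptor and acts once 4-hydroxy-tamoxifen (4OHT) is given. Treated co-cultures received 200 nM 4OHT and untreated ones DMSO, both for 24 h, and both held the transgenic cells. The age, sex and number of the mice were not given in the sources used here, and neither the labels nor the table mark transgenic cells. The study identified such cells from their reads and left them out, and any among the cells analysed here were not told apart. The library names fall into a series AG, with 66 untreated and 64 treated cells, and a series GHA501A, with 71 untreated and 69 treated cells. A further 8 AG cells bear a treatment label at odds with their library name and are not among the 270 cells analysed.

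Actin filaments and the motor myosin II make the contractile apparatus of the cell. Tension on it, and actin polymerisation, release the coactivators MRTF and YAP/TAZ into the nucleus, where they work with the DNA-binding factors SRF and TEAD. Contractile genes are typical SRF targets, and Ctgf, Cyr61, Ankrd1 and Amotl2 are widely used readouts of YAP/TAZ with TEAD. In skin, YAP is known to favour proliferation of basal keratinocytes, and a high level of Acta2 and its companions marks smooth muscle and activated fibroblasts.

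Each cell is 1 library and not a replicate of a condition, so the 4 sets of cells (series by treatment) were the unit of comparison, with 2 sets per condition. The level of a gene in a set was log2(mean TPM + 1), and sets were compared with limma. A gene was called at an adjusted p under 0.05 with an absolute log2 difference over 0.5, and counted as detected in a cell at TPM over 1. Nothing in the labels says whether the 2 series came from separate cultures or mice, so p-values measure the spread between these sets. The median number of genes detected per cell was 6191 and 6381 in untreated and treated AG cells, and 6392 and 6008 in those of GHA501A. The depth of a cell cannot be read from TPM, so counting error at low values could not be given.

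The labels call all cells keratinocytes, and the markers did not bear this out in GHA501A. The keratinocyte list (11 of 12 genes in the table) and the fibroblast list (8 of 12) were averaged as log2(TPM + 1) in each cell, and their difference was cut at 1 and -1 to give ranges of a score rather than cell types. All 130 AG cells lay in the keratinocyte-marker-high range. Of the 140 GHA501A cells, 21 lay in that range (9 untreated and 12 treated), 1 treated cell was intermediate, and the others were fibroblast-marker-high (62 untreated and 56 treated). In the set order AG untreated, AG treated, GHA501A untreated and GHA501A treated, 1, 1, 3 and 4 cells lay within 0.5 of a bound. Krt14, a keratin of basal keratinocytes, averaged 5314 and 6039 TPM in untreated and treated AG cells, but 9.00 and 58.7 TPM in fibroblast-marker-high cells of GHA501A. There Col1a1, the main collagen of fibroblasts, averaged 1722 and 2367 TPM. Cdh1, the epithelial cadherin, was detected in 1.61% and 14.3% of these cells, against 95.5% and 95.3% of AG cells. Summed over the 11 keratinocyte markers, mean TPM was 24.8 and 149.3 in the fibroblast-marker-high cells, against 10420 and 10940 in AG.

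**Figure D1:**
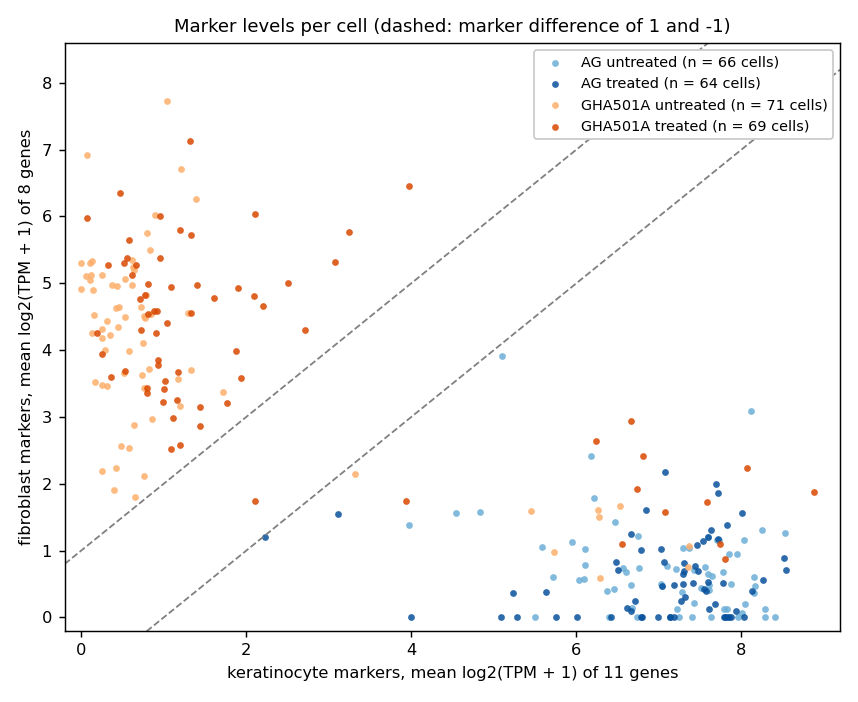
Each point is 1 cell, with the mean log2(TPM + 1) of 11 keratinocyte markers on the x axis and of 8 fibroblast markers on the y axis, coloured by library set. The 130 AG cells lie at the lower right with 21 GHA501A cells, and 62 untreated and 56 treated GHA501A cells lie above the upper dashed line.

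The series also differ in which genes are near 0. Of all genes, 0.764% were detected in at least 90% of GHA501A cells but in under 3% of AG cells, and 18 genes showed the reverse. The former include genes that every cell uses, such as the translation factor gene Eif5a, detected in 1 of 130 AG cells and in 140 of 140 GHA501A cells, and Eif4a1, with the same counts. Adnp stood the other way, detected in 124 of 130 AG cells and in 0 of 140 GHA501A cells. The cause was not tested. A member near 0 in 1 series was therefore taken as listed near 0 and given no fold change between series.

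Promoters of the YAP targets are shown because these genes are read through TEAD, and those of Acta2 and Myl9 because they were the contractile pair that varied together most closely between cells (values further on). RefSeq promoters (GRCm38.p6, from 250 bases before to 50 after the transcript start) were matched for 8 of the 10 members, Tagln and Ctgf being the others. The TEAD motif GGAATG was searched on both strands, as was the CArG box bound by SRF, and the search allowed no mismatch. GGAATG occurred in 5 of the 8 members (Acta2, Tpm1, Cyr61, Ankrd1 and Amotl2) and in 14.7% of 32851 promoters of this length. It was in 3 of 3 YAP targets with an entry and in 2 of 5 contractile members. An exact CArG box occurred only in Myl9 among the 8, and in 1.63% of all promoters. The Acta2 window holds ccctatatgg and ccttgtttgg, each with a mismatch to the box, which this search did not count. Near matches were not searched in any window, so the result does not show that the other members lack such elements. Ankrd1 held GGAATG at 2 places, starting 210 and 123 bases before the RefSeq transcript start. Capitals mark GGAATG, or CATTCC where it lies on the other strand, and in Myl9 the CArG box. A match describes the letters in this window and not a bound site. Of the 5 shown, the RefSeq start lies inside the longer GENCODE gene in all but Cyr61, and the windows of Ankrd1 and Amotl2 lie inside it as a whole.
Ankrd1, minus strand of chr19:36119795-36120094: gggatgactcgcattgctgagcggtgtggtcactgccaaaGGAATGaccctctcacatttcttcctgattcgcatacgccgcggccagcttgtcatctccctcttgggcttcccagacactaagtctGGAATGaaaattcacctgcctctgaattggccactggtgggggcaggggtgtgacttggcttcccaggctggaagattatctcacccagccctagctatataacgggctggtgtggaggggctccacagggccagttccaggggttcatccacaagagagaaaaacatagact
Cyr61, minus strand of chr3:145649936-145650235: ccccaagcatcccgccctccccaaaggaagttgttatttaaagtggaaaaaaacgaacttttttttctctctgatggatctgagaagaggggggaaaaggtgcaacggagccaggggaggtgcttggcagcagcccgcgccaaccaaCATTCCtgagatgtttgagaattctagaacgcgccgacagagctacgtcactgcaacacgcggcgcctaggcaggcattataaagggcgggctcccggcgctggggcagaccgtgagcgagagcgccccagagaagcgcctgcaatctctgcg
Amotl2, plus strand of chr9:102717554-102717853: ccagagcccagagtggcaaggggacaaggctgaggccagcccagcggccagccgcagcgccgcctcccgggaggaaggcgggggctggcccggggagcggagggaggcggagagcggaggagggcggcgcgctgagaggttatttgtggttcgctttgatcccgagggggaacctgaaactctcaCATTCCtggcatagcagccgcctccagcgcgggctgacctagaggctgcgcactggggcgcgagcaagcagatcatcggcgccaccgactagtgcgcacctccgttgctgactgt
Acta2, minus strand of chr19:34255324-34255623: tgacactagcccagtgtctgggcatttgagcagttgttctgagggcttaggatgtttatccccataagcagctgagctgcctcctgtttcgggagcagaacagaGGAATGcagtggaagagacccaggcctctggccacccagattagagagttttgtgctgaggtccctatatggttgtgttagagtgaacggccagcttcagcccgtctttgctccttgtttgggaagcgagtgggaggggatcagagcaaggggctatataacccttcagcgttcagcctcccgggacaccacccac
Myl9, plus strand of chr2:156775214-156775513: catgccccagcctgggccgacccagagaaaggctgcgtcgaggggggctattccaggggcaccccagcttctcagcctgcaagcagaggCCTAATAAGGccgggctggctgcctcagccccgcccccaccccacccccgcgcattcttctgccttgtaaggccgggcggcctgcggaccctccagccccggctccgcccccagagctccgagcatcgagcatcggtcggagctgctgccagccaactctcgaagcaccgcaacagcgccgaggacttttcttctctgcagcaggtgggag

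Acta2 encodes smooth muscle alpha-actin and lies on chromosome 19 of GRCm38 from 34241090 to 34255590 (minus strand, GENCODE M21). It had similar means in both series and a different typical cell. Untreated AG cells ran from 0 to 6197 TPM with a median of 47.5, and treated AG cells from 0 to 1755 TPM with a median of 44.96. Untreated GHA501A cells ran from 0 to 5098 TPM with a median of 6.92, and treated ones from 0 to 5129 TPM with a median of 2.06. Most AG cells held a moderate level, while the typical GHA501A cell was low and its highest cell, at 5129 TPM, stood beside 6197 TPM in AG. Acta2 was detected in 84.8% of untreated AG cells (95% Wilson interval 74.3 to 91.6, which like those below covers counting error of cells only) and in 92.2% of treated ones (82.98 to 96.6). In GHA501A the shares were 70.4% (58.98 to 79.8) and 53.6% (41.98 to 64.9). The means were 217, 158.8, 196 and 198 TPM in the set order used above. A single cell made up 43.2% of the summed TPM of untreated AG cells, and without the highest cell of each set the means were 125.2, 133.5, 125.7 and 125.3 TPM. Actin genes share closely related coding sequences and multiply-mapped reads were discarded, so levels of single actin genes are uncertain. Acta1, which encodes skeletal muscle actin, had a typical AG cell much like that of Acta2, with medians of 55.8 and 55.9 TPM. In both GHA501A sets its median was 0 TPM. The split of reads between actin genes was not tested, and this limit holds for each Acta2 difference between series below.

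Myl9 encodes the regulatory light chain of smooth muscle myosin II (chromosome 2 from 156775420 to 156781658, plus strand). It was listed at 0 TPM in the median cell of all 4 sets. Its highest cells reached 2348 TPM in untreated AG, 577 TPM in treated AG, 373 TPM in untreated GHA501A and 769 TPM in treated GHA501A. The means were 56.1, 44.9, 19.3 and 24.5 TPM, and 16.7%, 21.9%, 23.9% and 26.1% of the cells had it detected. The mean of untreated AG cells dropped to 20.9 TPM without its highest cell, which held 63.4% of the sum. Myl9 was thus a gene of few, strongly positive cells in both series.

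The tropomyosins, which coat actin filaments, behaved otherwise. Tpm2 (chromosome 4 from 43514711 to 43523765, minus strand) was the most evenly spread member near 0 in neither series, detected in 98.5%, 98.4%, 94.4% and 95.7% of cells. Its range was 0 to 1064 TPM with a median of 137.7 in untreated AG cells, and 0 to 728 TPM with a median of 141.9 in treated AG cells. In GHA501A it was 0 to 143.997 TPM with a median of 32.5 in untreated cells, and 0 to 301 TPM with a median of 57.6 in treated cells. AG cells were mostly higher than GHA501A cells, and the cells of the 2 series overlapped. Tpm1 (chromosome 9 from 67022590 to 67049406, minus strand) was listed above 0 in 25 of 130 AG cells and never above 0.839 TPM there. In GHA501A its lowest, median and highest cells were at 2.67, 40.4 and 204 TPM in the untreated set, and at 0.984, 48.1 and 272 TPM in the treated set. No AG cell reached the level of any GHA501A cell. Tpm1 is thus listed near 0 in AG, as Eif5a is, and its AG value cannot be read as low expression. Tpm3, another tropomyosin, averaged 3.16 TPM in AG, where 56.9% of cells had it detected, and 132.8 TPM in GHA501A. Tpm4 was high in both, at 2130 and 1456 TPM. Tropomyosin genes are related in sequence, and the split of reads between them was not tested.

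Tagln encodes transgelin, an actin-binding protein of smooth muscle (chromosome 9 from 45929619 to 45936058, minus strand), and Cnn1 encodes calponin 1, which binds actin and restrains myosin (chromosome 9 from 22099216 to 22109630, plus strand). Tagln was detected in 15.2%, 10.9%, 23.9% and 28.99% of the cells of the 4 sets, with means of 5.73, 3.89, 12.0 and 10.4 TPM and highest cells between 117 and 399 TPM. It shares exon bases with Pcsk7 and Gm48529 on the other strand, and whether the counting used strand was not given in the sources used here. Cnn1 was detected in few cells of either series. It was found in 1 of 66, 3 of 64, 7 of 71 and 9 of 69 cells, with means of 0.104, 2.54, 4.38 and 9.54 TPM. One cell of 148.4 TPM held 91.2% of the Cnn1 sum in treated AG cells.

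Among the YAP targets, Cyr61 and Ctgf encode secreted matricellular proteins of the CCN family (Ccn1 and Ccn2 in newer naming), Ankrd1 a nuclear and sarcomeric ankyrin repeat protein, and Amotl2 an angiomotin that binds YAP and holds it back. Cyr61 (chromosome 3 from 145646976 to 145649981, minus strand) was the highest of them and was similar in the 2 series. Untreated AG cells ran from 0 to 2361 TPM with a median of 55.3, and treated ones from 0 to 2151 TPM with a median of 30.3. In GHA501A the range was 0 to 3647 TPM with a median of 50.8 when untreated, and 0 to 2096 TPM with a median of 14.8 when treated. All 4 sets overlapped along most of their range. Cyr61 was detected in 77.3%, 65.6%, 87.3% and 86.96% of the cells, and its means were 221, 178, 245 and 183.6 TPM.

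Ctgf (chromosome 10 from 24595442 to 24598683, plus strand) was largely an AG gene. Untreated AG cells ran from 0 to 730 TPM with a median of 3.46, and treated ones from 0 to 573 TPM with a median of 2.84, with 59.1% (95% Wilson interval 47.05 to 70.1) and 56.2% (44.1 to 67.7) detected. In GHA501A the median was 0, the highest cell was at 57.4 TPM in the untreated and 361 TPM in the treated set, and 7.04% (3.05 to 15.4) and 13.04% (7.02 to 22.97) of the cells had it detected. The means were 46.005 and 53.4 TPM in AG against 1.32 and 7.35 TPM in GHA501A, where 1 treated cell carried 71.3% of the sum. Ctgf shares exon bases with Gm15270 on the other strand.

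Ankrd1 (chromosome 19 from 36111961 to 36120099, minus strand) was detected in 48.5%, 48.4%, 42.3% and 33.3% of the cells, with a median of 0 TPM in every set. Its means were 111.2, 120.9, 78.1 and 52.4 TPM, and its highest cells were at 1683, 1611, 2595 and 732 TPM. Amotl2 (chromosome 9 from 102716672 to 102733418, plus strand) was low throughout, with means of 10.2, 5.34, 3.76 and 5.26 TPM and detection in 50%, 59.4%, 39.4% and 34.8% of the cells. On this per-length scale the order of the 4 means was Cyr61, Ankrd1, Ctgf and Amotl2 in both AG sets. In GHA501A Ctgf came last in the untreated set, and in the treated set it was above Amotl2 only through its highest cell, without which the means were 2.14 and 4.37 TPM.

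**Figure D2:**
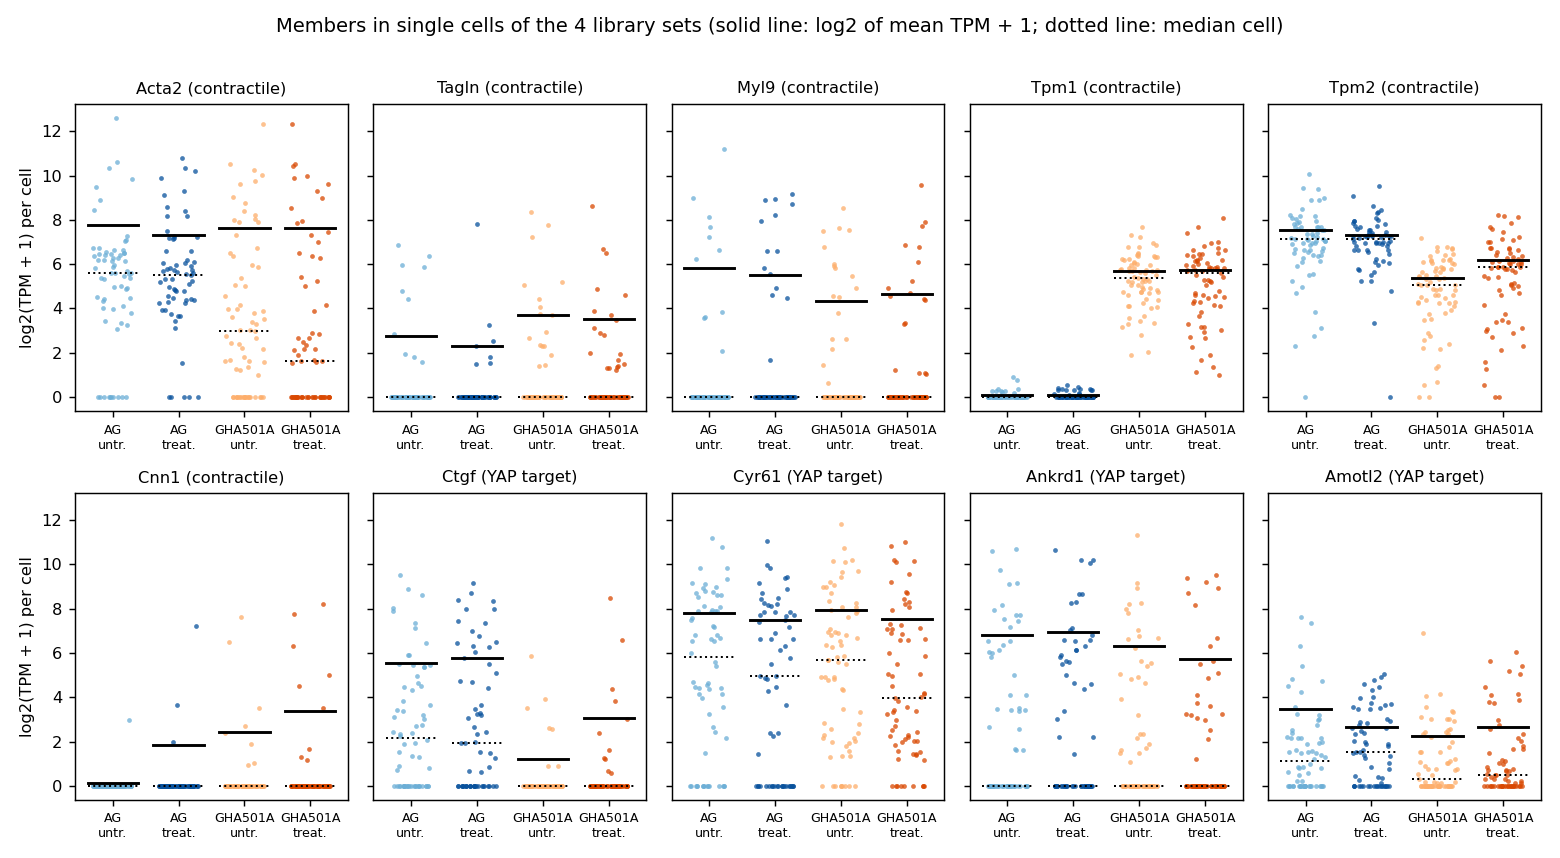
Each point is 1 cell at its log2(TPM + 1), by library set, in a panel per member. The solid line is log2 of the mean TPM + 1 and the dotted line the median cell. Tpm1 stays under 1 TPM in AG cells, Ctgf is mostly at 0 in GHA501A, and for Acta2 the solid lines sit at similar heights while the medians of 47.5 and 44.96 TPM in AG stand above those of 6.92 and 2.06 TPM in GHA501A.

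The spread between cells set the members apart. The SD over the mean of Acta2 was 3.67, 2.06, 3.36 and 3.43 in the 4 sets, which ranked at percentiles 90.7, 81.4, 93.1 and 89.4 of the genes with a mean of at least 10 TPM. Myl9 was similarly uneven, at percentiles 96.4, 91.1, 90.5 and 93.8. Tpm2 was among the evenly expressed genes, at percentiles 15.5, 12.4, 12.1 and 13.9, and so was Tpm1 in GHA501A, at 10.6 and 12.0. Of the YAP targets Cyr61 lay nearest the middle, at percentiles 58.7, 77.5, 75.4 and 67.3, and Ankrd1 at 82.8, 89.3, 96.4 and 84.4.

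The comparison of treated with untreated co-cultures asks whether neighbours with active beta-catenin move these genes in the cells around them. No member was called, beside 0 of all 12355 genes (0%) by limma, with 459 genes at an unadjusted p under 0.05. Cnn1 had the largest difference, 1.33 ± 0.37 on the log2(mean TPM + 1) scale (SE, n = 2 sets each), higher in treated cells of both series, with an adjusted p of 0.998 in limma. It was detected in 1 untreated and 3 treated cells of AG, and in 7 and 9 cells of GHA501A. Ctgf differed by 1.03 ± 0.50 (SE), mostly through GHA501A, where the difference was 1.85 against 0.21 in AG. Cyr61 was lower in treated cells of both series, by -0.31 in AG and -0.42 in GHA501A, and its treated and untreated set means did not overlap, as in 14.6% of all genes. Acta2, Myl9, Tpm2, Ankrd1 and Amotl2 had opposite signs in the 2 series. Tpm2 stood at -0.19 in AG and 0.81 in GHA501A, and Amotl2 at -0.82 and 0.39. The median difference of the 10 members was -0.10 and that of all genes -0.00089. The fit had 1 residual degree of freedom. Without the highest cell of each set Cnn1 stood at 0.79 and the Ctgf difference in GHA501A at 1.05, while Acta2, Ankrd1 and Amotl2 changed sign to 0.044, 0.084 and 0.14. Tagln then had the largest difference of the members, at -1.87 in AG and -0.58 in GHA501A, against -0.46 and -0.19 with all cells.

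**Figure D3:**
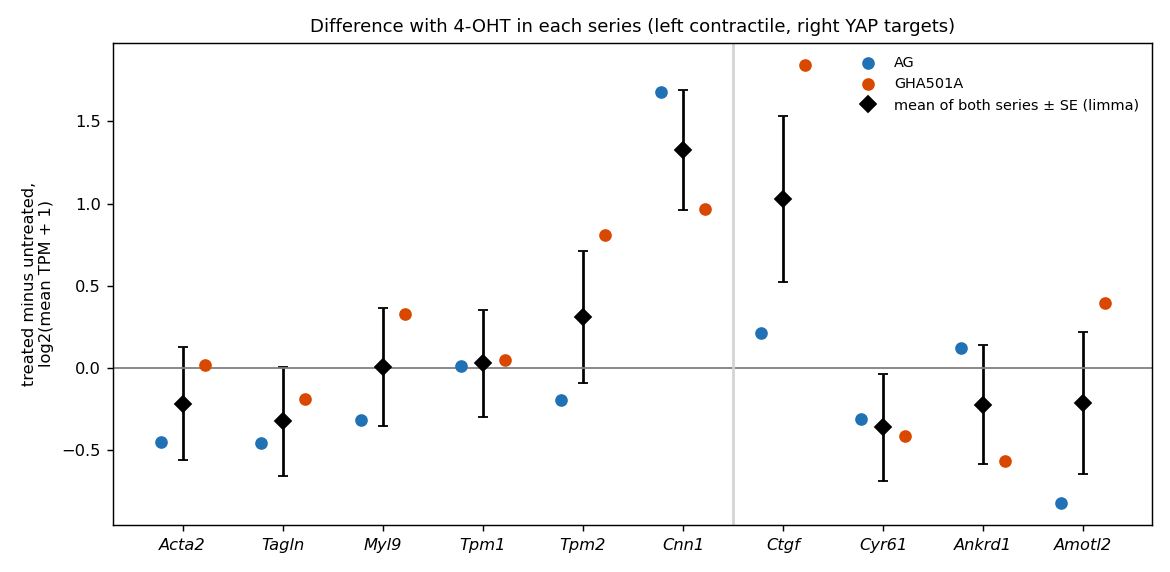
Difference in log2(mean TPM + 1) between treated and untreated cells for each member, in AG (blue), GHA501A (orange) and as the limma mean of both with its SE (black diamonds, n = 2 series). Cnn1 at 1.33 and Ctgf at 1.03 stand highest, and 5 members have 1 series on each side of 0.

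Between the series, GHA501A minus AG with treatment as a covariate, 4 of the 10 members were called, beside 29% of all genes (3580 of 12355). Ctgf was lower in GHA501A by -3.52 ± 0.50 (SE, n = 2 sets each, adjusted p = 0.00962 in limma) and Tpm2 by -1.65 ± 0.40 (adjusted p = 0.0421 in limma). Cnn1 was higher by 1.93 ± 0.37 (adjusted p = 0.0215 in limma), and Tpm1 was called with AG listed near 0, so that no fold is given. Cnn1 lay just above the 3% bound of genes near 0, detected in 3.08% of AG cells (4 of 130). Without the highest cell of each set its AG means were 0 (untreated) and 0.228 TPM (treated). The Cnn1 difference is thus set against AG values close to 0. Tagln stood at 1.08 ± 0.33 and Myl9 at -1.17 ± 0.36, with adjusted p of 0.0753 and 0.0754 in limma. Ankrd1 (-0.85 ± 0.36) and Amotl2 (-0.63 ± 0.43) did not pass. Ankrd1 did pass without the highest cell of each set (-1.10, adjusted p = 0.0331 in limma) and with the mean over cells of log2(TPM + 1) (-0.97, adjusted p = 0.0311 in limma). Acta2 (0.08 ± 0.34) and Cyr61 (0.09 ± 0.33) differed by less than their SE. For Acta2 this held for the mean of the cells only, since with the mean over cells of log2(TPM + 1) it was lower in GHA501A by -2.03 (adjusted p = 0.00703 in limma). The calls of Cnn1 and Tpm2 were lost with a pseudocount of 0.1 (adjusted p = 0.0631 and 0.0814 in limma), and that of Cnn1 also without the treatment covariate (adjusted p = 0.105 in limma), while Ctgf kept its call unless the untreated or the treated AG set was left out (adjusted p = 0.185 and 0.188 in limma). The 2 series differ at once in marker range and in the genes listed near 0 (1040 of the 3580 called), and these and any difference in culture or library preparation cannot be told apart.

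Within GHA501A, fibroblast-marker-high cells were compared with keratinocyte-marker-high cells of the same series and library sets. Acta2 averaged 218 and 241 TPM in untreated and treated fibroblast-marker-high cells, against 39.2 and 12.0 TPM in the keratinocyte-marker-high ones. Myl9 averaged 21.1 and 30.01 TPM against 6.81 and 0.730 TPM, and Cyr61 259 and 220 TPM against 149.1 and 17.8 TPM. Ctgf went the other way, with 0.337 and 2.53 TPM against 8.10 and 30.4 TPM. Cnn1 was listed at 0 in all 21 keratinocyte-marker-high cells and detected in 7 of 62 and 9 of 56 fibroblast-marker-high cells. In each of these genes the set means of the 2 ranges did not overlap, which held for 8 of the 10 members and for 46.1% of all genes.

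No member passed the test of that contrast, beside 2.03% of all genes (251 of 12355). The differences were 3.33 ± 0.55 for Acta2 (SE, n = 2 sets each, adjusted p = 0.0712 in limma), 2.83 ± 0.73 for Myl9 (adjusted p = 0.158), 2.18 ± 0.82 for Cyr61 (adjusted p = 0.283) and -2.96 ± 0.52 for Ctgf (adjusted p = 0.0789). Tpm1 and Tpm2, which both ranges expressed in nearly every cell, differed by -0.83 ± 0.36 and -0.19 ± 0.45. Tagln stood at 1.81 ± 0.85, Ankrd1 at 0.58 ± 0.56 and Amotl2 at 0.90 ± 0.52. Acta2 did pass with the range bound at 2 (5.22, adjusted p = 0.0460), without the treatment covariate (3.33, adjusted p = 0.0497) and without the highest cell of each range (5.65, adjusted p = 0.0149), each by limma. In the last setting Myl9 passed too (3.94, adjusted p = 0.0202 in limma), and the Ctgf difference fell to -0.49. That setting took out a treated keratinocyte-marker-high cell at 361 TPM, with 98.9% of its set's Ctgf sum. It also took out an untreated one at 57.4 TPM, with 78.8%. The fibroblast-marker-high cells taken out were at 14.3 (untreated) and 95.1 TPM (treated). Only 9 and 12 cells made the keratinocyte-marker-high sets, and 1 cell at 333 TPM supplied most of the Acta2 in the untreated one. Its marker difference of 1.18 lay close to the bound of 1, and the other 8 cells averaged 2.46 TPM.

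The series were then compared in keratinocyte-marker-high cells only, where 3 of the 10 members were called beside 17.9% of all genes (2216 of 12355). Acta2 was lower in GHA501A by -3.03 ± 0.55 (SE, n = 2 sets each, adjusted p = 0.0283 in limma) and Myl9 by -3.80 ± 0.73 (adjusted p = 0.0332 in limma), and Tpm1 was called with AG listed near 0. AG cells of this range averaged 188.5 TPM of Acta2 (130 cells) and GHA501A cells 23.7 TPM (21 cells), with 88.5% and 47.6% detected. In the untreated and treated sets the highest cell held 94.4% and 88.8% of the Acta2 sum in GHA501A, and 43.2% and 17.3% in AG. The SD between sets was 1.15 in GHA501A and 0.32 in AG for Acta2, and 1.54 and 0.22 for Myl9. The SE does not show this difference in spread, nor that 9 and 12 cells made the GHA501A sets. Myl9 was detected in 25 of 130 AG cells (Wilson interval 13.4 to 26.8%) and 3 of 21 GHA501A cells (4.98 to 34.6%). At least 100 TPM of Myl9 was reached by 11 of 130 and 0 of 21 cells (up to 15.5%). Whether 21 cells missed rare high cells was not tested. Ctgf averaged 49.7 against 20.9 TPM (-1.58 ± 0.52, adjusted p = 0.116 in limma), and Tpm2 172 against 66.7 TPM (-1.50 ± 0.45, adjusted p = 0.0975 in limma). All 9 members other than Tpm1 had a negative difference, beside a median of -0.18 for all genes. Cnn1 among them was listed at 0 in GHA501A, in a range where AG had 4 of 130 cells. The call of Myl9 was lost with a pseudocount of 0.1 (adjusted p = 0.0511) and with the mean over cells of log2(TPM + 1) (-0.70, adjusted p = 0.190), both by limma. That of Acta2 was lost without the untreated AG, the treated AG or the treated GHA501A set (adjusted p = 0.173, 0.131 and 0.0533 in limma). Ctgf passed without the highest cell of each set (-4.35, adjusted p = 0.0111 in limma) and with the mean over cells of log2(TPM + 1) (-1.63, adjusted p = 0.0240 in limma). Smooth muscle and pericyte markers (7 of 10 in the table) were read beside Acta2, and their part in its level was not tested. Their summed mean was 44.98 and 37.1 TPM in AG, 146.2 and 73.5 TPM in keratinocyte-marker-high and 13.9 and 63.5 TPM in fibroblast-marker-high cells of GHA501A, with Cspg4 and Kcnj8 near 0 in all 6. Rgs5, Mcam or Notch3 was the most abundant of them, with Rgs5 at 130 TPM in untreated keratinocyte-marker-high cells of GHA501A. Actg2, the actin of enteric smooth muscle, averaged 9.55 and 0.7496 TPM in AG and 0.317 and 10.1 TPM in fibroblast-marker-high cells, and like Lmod1 was at 0 in both keratinocyte-marker-high sets of GHA501A, where Acta2 was lowest.

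**Figure D4:**
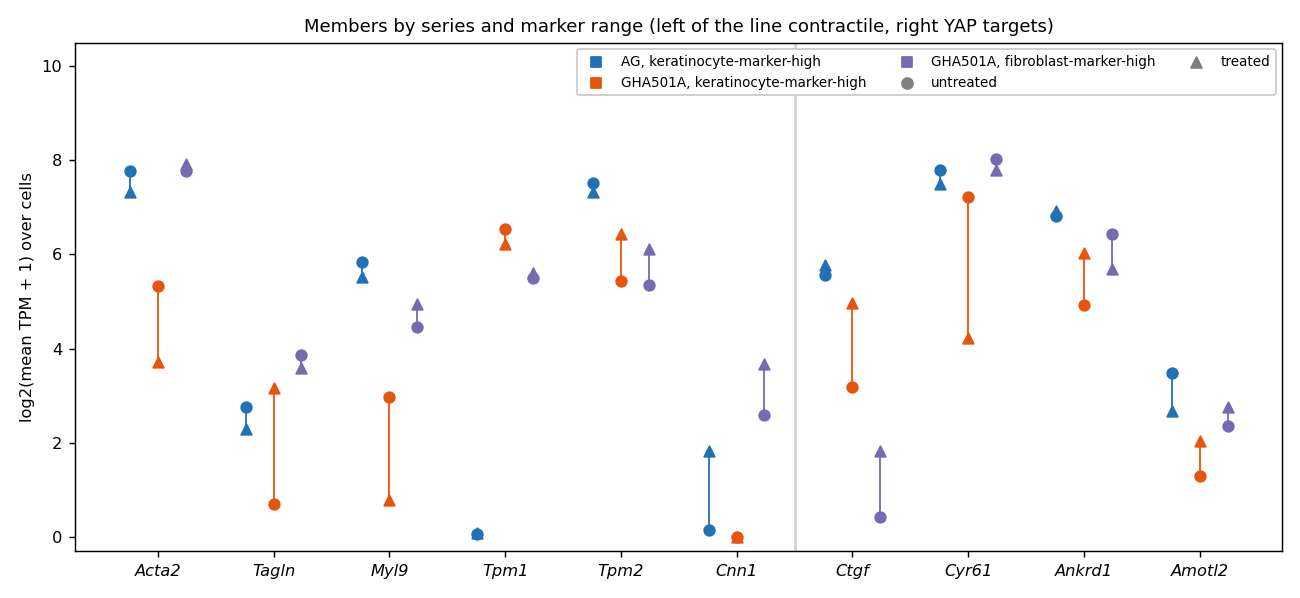
Level of each member, as log2(mean TPM + 1), in AG keratinocyte-marker-high cells (blue), GHA501A keratinocyte-marker-high cells (orange) and GHA501A fibroblast-marker-high cells (purple), with circles for untreated and triangles for treated sets joined by a line. Acta2 and Myl9 are lowest in the orange sets, and Ctgf is lowest in the purple ones.

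Other genes of these pathways are given by lists of their known members. Of 27 further contractile and SRF/MRTF genes tested, none passed with treatment, and 3 were higher (Tpm3, Pdlim5 and Filip1l) and 4 lower (Acta1, Actg1, Pdlim7 and Zyx) in GHA501A. These 7 are 25.9% of the list, near the 29% of all genes called. Filip1l was near 0 in AG, detected in 2.31% of its cells, so its AG value cannot be read as low expression. The median difference of the 27 between series was -0.78, against 0.01 for all genes. Acta1, the actin of skeletal muscle, averaged 59.99 and 66.6 TPM in AG against 0.570 and 0.412 TPM in GHA501A (-5.43 ± 0.33, adjusted p = 0.00184 in limma). The limit on levels of single actin genes given for Acta2 holds for Acta1 and Actg1 too. Pdlim5, a scaffold on actin bundles, was higher in GHA501A by 2.88 ± 0.33 (adjusted p = 0.00498 in limma). Actb, the main cytoplasmic actin, stood at -0.54 ± 0.34 with treatment. Among 6 genes of SRF and its cofactors only Mkl2 (MRTF-B) passed between series (16.7% beside 29% of all genes), detected in 3.08% of AG and 96.4% of GHA501A cells. Mkl2 averaged 0.522 TPM in AG and lay just above the 3% bound of genes near 0, so its AG value cannot be read as low expression either.

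Yap1, Wwtr1 and Tead4 belong to the genes listed near 0 in AG, as Eif5a and Eif4a1 do, so their AG values cannot be read as low expression. Yap1 was detected in 0 of 130 AG cells and 82.1% of GHA501A cells, and Wwtr1, which encodes TAZ, in 0 of 130 AG cells and 86.4% of GHA501A cells. Tead1 was detected in 10.8% and 88.6% and Tead4 in 1.54% and 29.3% of AG and GHA501A cells. Of 18 YAP, TAZ, TEAD and Hippo genes, 6 were called higher (these 4 with Mob1a and Nf2) and 2 lower (Amotl1 and Vgll3) in GHA501A, and the same 8 were called among keratinocyte-marker-high cells. This is 44.4% of the list, beside 29% and 17.9% of all genes. Without genes near 0 in a series, 5 of 15 were called in both comparisons (33.3%), beside 24.3% and 13.4% of all genes. Tead1 was among these 5, though its AG mean was only 0.309 TPM. Amotl1, another angiomotin, averaged 212 and 213 TPM in AG and 59.7 and 44.95 TPM in GHA501A. Within GHA501A none of the 18 passed between the marker ranges.

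Of 15 other YAP/TAZ targets, 0 were higher and 4 lower in GHA501A, or 26.7% beside 29% of all genes. Igfbp3, a carrier of insulin-like growth factors, averaged 659 and 175.5 TPM in AG and 23.4 and 36.8 TPM in GHA501A (-3.49 ± 0.68, adjusted p = 0.0232 in limma). In the keratinocyte-marker-high cells of GHA501A it averaged 134.9 and 170.9 TPM, against 7.19 and 8.76 TPM in the fibroblast-marker-high ones. Nt5e, the surface enzyme CD73, stood at -2.81 ± 0.51 (adjusted p = 0.0186 in limma), and Gadd45a and Crim1 at -2.28 and -1.48. Foxf2, a transcription factor of mesenchymal cells, and Tgfb2, a growth factor, were the 2 of 15 called between the marker ranges of GHA501A (13.3% beside 2.03% of all genes), at 4.85 ± 0.42 and 3.14 ± 0.40 (adjusted p = 0.0308 and 0.0477 in limma). Both calls were lost without the filter on low values (adjusted p = 0.0598 and 0.0735), with a pseudocount of 10 (0.0835 and 0.153) and with any set left out (0.0940 to 0.138), and 1 of them with a pseudocount of 0.1 (Tgfb2, 0.0519) and with the mean over cells of log2(TPM + 1) (Foxf2, 0.119), all by limma. Foxf2 averaged 52.8 and 28.9 TPM in fibroblast-marker-high against 0.329 and 0.465 TPM in keratinocyte-marker-high cells. AG cells, all keratinocyte-marker-high, averaged 41.6 and 38.4 TPM of Foxf2, which was detected in 30.3% and 45.3% of them. Tgfb2 averaged 7.73 and 12.1 TPM in fibroblast-marker-high, 0.0281 and 0.4296 TPM in keratinocyte-marker-high cells of GHA501A, and 12.8 and 10.7 TPM in AG. Among keratinocyte-marker-high cells both were called lower in GHA501A than in AG, by -4.88 ± 0.42 and -3.39 ± 0.40 (adjusted p = 0.00520 and 0.0100 in limma), the only 2 of the 15 (13.3%, beside 17.9% of all genes). None of these 4 lists had a gene that passed with treatment.

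Across the cells of a set, pairs of YAP targets had a higher median coefficient than contractile pairs (0.24, 0.31, 0.25 and 0.20 against 0.08, 0.10, 0.14 and 0.13 in the 4 sets), and the difference was not tested. Spearman's coefficient is given as a description, with no test, since the values of a cell share its depth and a fixed total. Many values were tied at 0, so coefficients of sparse members rest on few cells. Cnn1 was above 0 in 1, 3, 8 and 9 cells of the 4 sets, and Ctgf in 7 and 11 cells of the GHA501A sets. The part of such ties in the lower contractile medians was not tested. All 6 pairs of YAP targets had a positive coefficient in each of the 4 sets (66, 64, 71 and 69 cells), with a median of 0.26 and a range from 0.13 to 0.33 over the pairs' means. Cyr61 with Amotl2 was the highest pair, at 0.30, 0.57, 0.26 and 0.20 in the 4 sets. Among 15 contractile pairs the median was 0.12, and 7 were positive in all 4 sets. Since Tpm1 is listed near 0 in AG, its pairs cannot be read there. Among the 10 contractile pairs without Tpm1 the median was 0.13, and 5 were positive in all 4 sets. Acta2 with Myl9 was the highest of them, at 0.37, 0.41, 0.24 and 0.22. The 24 pairs of a contractile member with a YAP target had a median of 0.07, and 2 were positive in all 4 sets. Without Tpm1 the median was 0.06, and 1 of 20 was positive in all 4 sets. Over all pairs of 6516 genes the median coefficient was 0.05, 0.06, 0.01 and 0.02 in the 4 sets, with a 95th percentile of 0.32, 0.30, 0.24 and 0.25. Of these pairs, 62.2%, 66.1%, 54.4% and 56.9% were positive in the respective set. The 6516 genes were those detected in at least 25% of the cells of every set. Tagln, Myl9, Tpm1, Cnn1 and Ctgf did not reach that share in every set, so this background is of less sparse genes. Of the 5, 6, 5 and 5 cells with at least 100 TPM of Myl9, 3, 5, 3 and 2 also had at least 100 TPM of Acta2, a level reached by 12, 16, 16 and 14 cells. Restricted to the most common marker range of each set, the medians were 0.26 for YAP targets, 0.13 for contractile pairs and 0.07 between them, with 5 of the 6 YAP pairs positive in all sets. In the treated fibroblast-marker-high cells of GHA501A the YAP and contractile medians were close, at 0.18 and 0.17.

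**Figure D5:**
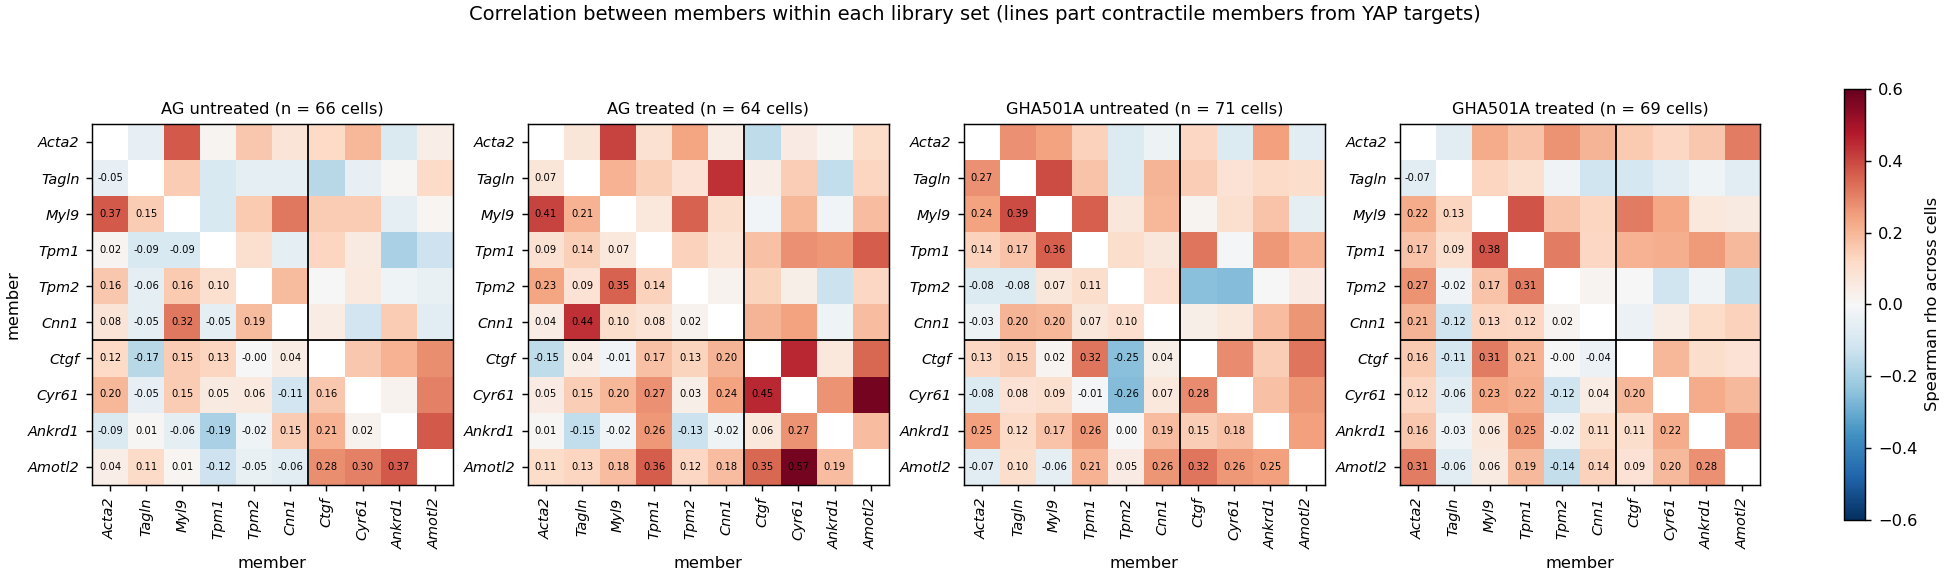
Spearman's coefficient between each pair of members across the cells of each library set, red for positive and blue for negative, with values printed under the diagonal. The block of 4 YAP targets at the lower right is positive in all 4 panels, and Acta2 with Myl9 at 0.37, 0.41, 0.24 and 0.22 stands out in the contractile block.

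The genes most like the mean of the contractile members, by mean coefficient over the 4 sets among 6516 genes, were Cnn2 (0.52), Actb (0.44), Rsu1 (0.41), Myl12a (0.40) and Actg1 (0.40). For Cnn2 the coefficient was 0.61, 0.72, 0.29 and 0.44 in the sets. The genes most like the mean of the YAP targets were Ajuba (0.28), Ncl (0.28), Eci1 (0.28), Snx18 (0.28) and Smg5 (0.26). Ajuba ran from 0.10 in treated GHA501A cells to 0.46 in treated AG cells. The mean of the contractile members had a coefficient of 0.32, 0.14, 0.02 and 0.06 with the number of genes detected per cell, and the mean of the YAP targets one of -0.0014, 0.07, 0.23 and 0.17, and the part of this in the pairs was not tested.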

How the data were processed

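The deposited values are TPM for 14145 genes, which the authors made from SMART-Seq v4 libraries of single cells captured on the Fluidigm C1, where doublet and non-viable capture sites were excluded by imaging. Per the submitters' processing notes and the methods, reads were checked with FastQC, trimmed with cutadapt, aligned to GRCm38 with TopHat without multiply-mapped reads, and counted with featureCounts (versions not given in the sources used here). Each cell sums to 1000000 TPM. Of 294 columns, 278 belong to a labelled cell, and the 16 that match no label stayed out. The 8 cells whose labels conflict served only for an alternative and are described with the closing observations. Groups were taken from the library names and treatment labels.

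The level of a gene was log2(mean TPM + 1), taken in each set or in each marker range with at least 5 cells in both sets of a series. Comparisons used R 4.3.3 and limma 3.58.1 (moderated statistics, two-sided, Benjamini-Hochberg adjustment over 12355 genes). Series was the replicate block of the treatment comparison, as the methods control for batch, and treatment a covariate of the others. Thresholds follow the methods. The steps were tested on simulated data. Other values came from scipy 1.17.1, pandas 2.3.3 and numpy 2.4.6 under Python 3.11.15 and plots from matplotlib 3.10.9, with positions from GENCODE M21 and promoters from RefSeq GRCm38.p6.

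The members, the marker lists and the 4 lists of pathway genes were chosen with earlier results of these data known. One further list is not reported here. Besides the members, the genes named from a list were up to 4 called genes with the largest differences per comparison, or the 2 most abundant where none was called, and the 5 most like each group of members among genes detected in at least 25% of the cells of every set. Tpm4, Pdlim7, Zyx, Mob1a, Nf2, Amotl1 and the genes near 0 were named after their values were seen. Alternatives were pseudocounts of 0.1 and 10, no filter, a filter at 10% of cells, the mean of log2(TPM + 1), the 8 cells included by label, TPM rescaled without ribosomal protein genes, no replicate block, each set left out, and range bounds of 2 and 0. Leaving out genes near 0 in a series, leaving out the highest cell, and contractile pairs without Tpm1 were chosen after seeing the data.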

Additional observations from a re-analysis of the deposited data

Results flagged for a closer look

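The treatment differences of Acta2, Myl9, Tpm2, Ankrd1 and Amotl2 had opposite signs in the 2 series. None passed the treatment test, each series gave a single pair of sets, and the difference between series was not tested. On the log2(mean TPM + 1) scale, treated minus untreated was -0.45 in AG and 0.016 in GHA501A for Acta2, -0.31 and 0.33 for Myl9, and -0.19 and 0.81 for Tpm2. It was 0.12 and -0.57 for Ankrd1, and -0.82 and 0.39 for Amotl2. The highest cell carried 43.2% of the Acta2 sum and 63.4% of the Myl9 sum in untreated AG cells, and 46.8% of the Ankrd1, 44.3% of the Amotl2 and, in the treated set, 45.5% of the Myl9 sum in GHA501A. Without the highest cell of each set both signs turned for Acta2 (0.091 in AG and -0.0038 in GHA501A) and for Myl9 (0.78 and -0.070), and Ankrd1 was positive in both (0.16 and 0.0099). Amotl2 (-0.50 and 0.78) and Tpm2 (-0.17 and 0.79) kept opposite signs. Tpm2 rested on no such cell, with at most 8.81% of a set's sum in 1 cell. By marker range, the GHA501A difference among fibroblast-marker-high and keratinocyte-marker-high cells was 0.77 and 0.99 for Tpm2, 0.41 and 0.74 for Amotl2, 0.14 and -1.62 for Acta2, 0.49 and -2.18 for Myl9, and -0.74 and 1.11 for Ankrd1. In the keratinocyte-marker-high cells, the range of all AG cells (9 and 12 cells in GHA501A), Acta2, Myl9 and Ankrd1 had the sign of AG. Of the members flagged here, Tpm2 and Amotl2 had opposite signs there. Tagln (2.48 against -0.46 in AG) and Tpm1 (-0.33 against 0.0091, with AG listed near 0) did too. Of the untreated and treated sums in this range of GHA501A, 1 cell held 94.4% and 88.8% for Acta2, and 97.1% and 100% for Myl9. In the treated cells 1 cell held 95.4% of the Tagln sum. Without the untreated cell at 333 TPM the other 8 averaged 2.46 TPM of Acta2, below the 12.0 TPM of the treated set. With groups of 2 sets no set could be examined as an outlier.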

How the results depend on the processing

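With treatment no gene was called in any alternative. Between the series 3580 genes were called, 5539 with the mean over cells of log2(TPM + 1), and 1023 to 2229 with a set left out. Between the marker ranges of GHA501A the 251 called genes became 38 with a pseudocount of 10, 0 without the filter, 854 without the highest cell and 0 to 0 with a set left out. Among keratinocyte-marker-high cells the 2216 became 1239 with a pseudocount of 10, 1382 without genes near 0 in a series, 3489 without the highest cell, and 1066 to 2748 with a set left out. Without the replicate block or covariate the counts were 0, 3853, 527 and 2758 for treatment, series, ranges and keratinocyte-marker-high cells. Fits with a set left out had no block, so that the series also entered them. The median share of cells with a member detected, 45.3%, was 51.1% at TPM over 0 and 21.8% at TPM over 10.

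Of 534 alternative values for members, 468 kept direction and side of the threshold, 28 changed sign, 15 passed the threshold newly and 23 lost it. For treatment the sign changed to 0.044 for Acta2, 0.084 for Ankrd1 and 0.14 for Amotl2 without the highest cell, to -0.016 for Myl9 with a pseudocount of 10, and to -0.10 for Tpm1 and 0.16 for Amotl2 with the mean of log2(TPM + 1). With the latter, Acta2 was -2.03 between series, Ankrd1 -0.80 between ranges and Tagln 0.13 among keratinocyte-marker-high cells, and without the highest cell Acta2 was -0.043 between series. With a set left out, treatment differences ran from -0.93 to 0.28 for Tagln, -0.74 to 0.75 for Myl9, -2.80 to 2.86 for Tpm1, -0.77 to 1.38 for Tpm2, -1.14 to 3.20 for Ctgf, -0.82 to 0.37 for Ankrd1 and -0.83 to 0.40 for Amotl2. Series differences ran from -0.14 to 0.31 for Acta2 and -0.11 to 0.30 for Cyr61, that of Ankrd1 between ranges from -0.35 to 1.503, and that of Tagln among keratinocyte-marker-high cells from -1.83 to 0.64. Apart from what each alternative removes, the cause was not tested. Sequencing depth is not in TPM, so it could not be set against any value.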

Other observations

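The 8 AG cells whose library name and treatment label disagree (5 labelled treated and 3 labelled untreated) were all keratinocyte-marker-high. Their Acta2 ran from 23.4 to 645 TPM with a median of 56.1, and was detected in 8 of 8. Cyr61 ran from 0 to 1802 TPM with a median of 13.7, Tpm2 from 0 to 233 TPM with a median of 131, and Ctgf from 0 to 184.8 TPM with a median of 5.70. Tpm1 was detected in none, which among 8 cells allows a share of up to 32.4% by the Wilson interval, and Cnn1 was at 0 in all. Every member's highest value in these cells lay within the range of the other AG cells.

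Lyz2, which encodes lysozyme M of myeloid cells, was the most abundant of the 2 immune markers in the table and was highest in the fibroblast-marker-high cells of GHA501A, where it averaged 441 TPM untreated and 1314 TPM treated, against 147 and 98.3 TPM in AG. Cd52 was near 0 in all sets. Endothelial markers in the table (Kdr and Tek) were near 0 throughout. Melanocyte markers summed to 76.3 and 50.1 TPM in AG, led by Tyr, to 13.7 and 81.6 TPM in keratinocyte-marker-high cells of GHA501A, led by Pmel, and to 26.6 and 29.7 TPM in the fibroblast-marker-high ones, led by Tyr. In AG, Schwann cell markers summed to 39.6 and 19.2 TPM, led by Ngfr, and suprabasal keratinocyte markers to 141.5 and 105.1 TPM, led by Ivl. In treated keratinocyte-marker-high cells of GHA501A the suprabasal sum was 569 TPM, led by Krtdap, against 66.9 TPM in the untreated ones. The part of these in the members' levels was not tested.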
